A study of Mus musculus with 15 samples.

Results

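The genes described here are 10 markers of endothelial cells, the cells that line blood vessels: Pecam1, Cdh5, Cldn5, Kdr, Tek, Flt1, Esam, Slco1c1, Emcn and Tie1. A gene was taken from the array rows that carry it as their only symbol in the platform annotation, and each of the 10 had 1 such row. They are 10 of 22180 genes measured in RNA from newborn mouse cerebella. The values are log2 expression, deposited by the authors, and every difference below is on that log2 scale. The study has 15 libraries, 1 whole-transcript array each, in 3 groups of 5, all on a C57BL/6 background.

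Glycogen synthase kinase 3 (Gsk-3) has an alpha and a beta isoform. The double knockout, labelled DKO, lacks both in the progenitors that form cerebellar granule neurons. The Math1-Cre control lacks Gsk-3 beta in those cells and carries 1 altered Gsk3a allele. The no-Cre control has the same Gsk3a genotype and no Cre, so both controls also differ from wild type at Gsk3a. Math1 is another name for Atoh1, a transcription factor of granule neuron progenitors, so the Cre is not directed at endothelium. For no-Cre replicate 5, the description leaves out Gsk3b. The labels give an age of P1 in 1 field and P2 in another. Whole cerebella were dissociated, and the design text mentions enrichment of progenitors on a density gradient, which leaves an unstated share of vessel cells. No litter or collection day is named in the labels, and p-values therefore reflect only how these libraries spread. Precision is limited by having 5 arrays a group.

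Endothelial cells of the brain form the blood-brain barrier. They are sealed by tight junctions, linked by adherens junctions, and carry transporters that move selected molecules between blood and brain. Their growth is driven by vascular endothelial growth factor (VEGF), made by neural cells and read by receptors on the endothelium, while angiopoietins acting through the TIE receptors bear on vessel stability. In bulk RNA, fewer endothelial cells and less RNA of a gene per cell cannot be told apart.

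The 10 rows were all expressed. Their lowest value in any library was 5.86, whereas the medians of 1394 olfactory and vomeronasal receptor genes, which the cerebellum is not known to use, ran from 3.50 to 4.11 over the 15 arrays. Genes of the granule lineage were expressed as well, with Atoh1 between 7.81 and 9.31, Pax6 between 9.01 and 9.65, and Zic1 between 11.12 and 11.51. Neurod1, a factor of differentiating granule neurons, was lower, between 4.50 and 5.73.

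Some libraries stood apart. The array row annotated to Gsk3a was below 9.0 in 5 libraries, at 7.89 to 8.27, and at 9.37 to 9.59 in the other 10. The low ones were DKO replicates 2, 4 and 5 and the libraries labelled Math1-Cre replicates 1 and 2. The libraries labelled DKO replicates 1 and 3 were high. Those 4 libraries, DKO 1 and 3 and Math1-Cre 1 and 2, therefore went against their labels, and the comparisons are also given without them, in 11 libraries. Separately, DKO replicates 3, 4 and 5 and no-Cre replicate 4 had arrays of narrow spread, with interquartile ranges of 3.43 to 3.56 against 3.73 to 3.85 in the other 11.

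All 10 endothelial rows averaged lower in DKO libraries than in either control, and none of these differences passed an adjusted p of 0.05 in the limma fit. The median difference over the 10 was -0.26 from the no-Cre control, against -0.02 over all genes, and -0.23 from the Math1-Cre control, against -0.05 over all genes. All genes include those at background, whereas the 10 were expressed. With genes below the 30th percentile of mean level left out, the median over genes from no-Cre was -0.06. In 15 libraries Emcn had the largest difference of the 10, with an average 1.51-fold lower than in no-Cre and 1.62-fold lower than in Math1-Cre libraries. In the 11 libraries Kdr had the largest, at -0.46 from no-Cre and -0.52 from Math1-Cre, with Emcn at -0.33 and -0.36. The Math1-Cre and no-Cre controls did not separate, with a median difference of -0.01.

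The promoter bases of 3 members are printed because they stand for the pattern among the 10: Cldn5 and Emcn moved together with most of the others, and Slco1c1 did not. Each run holds the 250 bases before a transcript start, on the plus strand, 5′ to 3′, from RefSeq on GRCm38.p6, a later assembly than the mm9 named for the arrays. Capitals mark a match to a searched motif, on either strand. The windows lie at chr16:18776597-18776846 for Cldn5, chr3:137340828-137341077 for Emcn and chr6:141524104-141524353 for Slco1c1.
Cldn5: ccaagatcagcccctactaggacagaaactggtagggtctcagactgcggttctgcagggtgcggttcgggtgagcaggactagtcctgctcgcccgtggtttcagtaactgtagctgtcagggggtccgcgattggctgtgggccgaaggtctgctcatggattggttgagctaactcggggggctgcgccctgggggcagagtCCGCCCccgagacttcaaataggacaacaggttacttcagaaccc
Emcn: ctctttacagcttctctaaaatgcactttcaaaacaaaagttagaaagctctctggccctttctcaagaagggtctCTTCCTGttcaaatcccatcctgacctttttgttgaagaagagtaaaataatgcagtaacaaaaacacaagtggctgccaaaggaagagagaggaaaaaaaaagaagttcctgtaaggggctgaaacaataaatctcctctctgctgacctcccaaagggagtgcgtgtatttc
Slco1c1: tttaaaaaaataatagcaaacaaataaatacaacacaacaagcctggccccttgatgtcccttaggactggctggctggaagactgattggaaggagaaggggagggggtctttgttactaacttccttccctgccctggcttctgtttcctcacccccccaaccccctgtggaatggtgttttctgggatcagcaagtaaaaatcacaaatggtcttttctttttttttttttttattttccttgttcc

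Promoter entries were matched for 7 of the 10 members. Among 32851 such windows, GGGCGG, the core of the GC box, was present in 32.7% and in 3 of the 7 members, Cldn5, Kdr and Flt1. The ETS-type letters CAGGAAG were present in 10.8% and in 1 member, Emcn. CCGGAAG, another ETS-type form, was in 6.91% of windows and in 0 of the 7. TATAAA was in 12.4% and in 1 member, Flt1. Both strands were searched and the matches in members did not overlap. The Slco1c1, Tek and Tie1 windows held none of these letters, although Tek and Tie1 varied together with most of the others. Whether motifs go with levels was not tested.

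The junction and adhesion genes come first. Emcn encodes endomucin, a sialomucin on the luminal face of veins and capillaries. Its level in DKO replicates 1 to 5 was 8.42, 8.52, 7.68, 8.63 and 9.00. Math1-Cre replicates 1 to 5 had 9.13, 9.36, 8.95, 8.96 and 9.32, and no-Cre replicates 1 to 5 had 9.14, 9.44, 8.84, 8.59 and 9.21. The means were 8.45 ± 0.48 in DKO, 9.14 ± 0.19 in Math1-Cre and 9.05 ± 0.33 in no-Cre libraries (SD, n = 5 each). DKO 3 was the lowest of the 15 libraries, and DKO 5 was the only DKO library that reached into the Math1-Cre range. The difference in the limma fit was -0.60 ± 0.20 (SE) from no-Cre, with an adjusted p of 0.164, and -0.69 ± 0.20 from Math1-Cre, with an adjusted p of 0.0899. Without the 4 libraries that went against their labels, the difference was smaller, -0.33 ± 0.18 from no-Cre and -0.36 ± 0.20 from Math1-Cre. Without the 4 arrays of narrow spread, which leaves DKO 1 and 2 as the only DKO libraries, DKO 1 being against its label, it passed the threshold, at -0.69 with an adjusted p of 0.0418 from no-Cre and -0.67 with an adjusted p of 0.0456 from Math1-Cre. In that fit 804 of 22180 genes passed from no-Cre. Leaving out no-Cre 4 alone gave a limma adjusted p of 0.0498 from no-Cre and 0.0486 from Math1-Cre, where 1546 and 1288 genes passed. Leaving out DKO 5 alone gave Emcn a limma adjusted p of 0.0463 from Math1-Cre. Leaving out DKO 3, its lowest library, gave -0.41 from no-Cre with an adjusted p of 0.317 and -0.50 from Math1-Cre with an adjusted p of 0.191.

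Cldn5 encodes claudin-5, the main claudin of the blood-brain barrier's tight junctions. Its level was 6.47, 6.26, 6.39, 6.71 and 6.93 in DKO replicates 1 to 5. Math1-Cre replicates 1 to 5 had 6.61, 6.60, 7.04, 7.03 and 7.26, and no-Cre replicates 1 to 5 had 7.17, 6.96, 6.88, 6.61 and 7.16. The lowest 3 libraries were DKO, and the groups overlapped through DKO 4 and 5, the low Math1-Cre 1 and 2, and no-Cre 4. The limma differences were -0.40 ± 0.15 from no-Cre, with an adjusted p of 0.205, and -0.35 ± 0.15 from Math1-Cre, with an adjusted p of 0.186.

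Esam, an immunoglobulin-family adhesion molecule at endothelial tight junctions, had 6.71, 6.82, 6.33, 6.45 and 6.70 in DKO replicates 1 to 5. Math1-Cre replicates 1 to 5 had 6.82, 6.85, 6.82, 6.89 and 7.08, and no-Cre replicates 1 to 5 had 6.91, 6.85, 6.82, 6.57 and 6.94. The 4 lowest libraries were the 4 arrays of narrow spread, which lay at 6.33 to 6.70 against 6.71 to 7.08 in the other 11. The share of all genes with such separate ranges was not counted. Esam was the only member of the 10 for which these ranges did not overlap. With array spread as a covariate its difference was -0.11 from no-Cre and -0.14 from Math1-Cre. Without that covariate it was -0.22 ± 0.10 from no-Cre (limma adjusted p = 0.276) and -0.29 ± 0.10 from Math1-Cre (limma adjusted p = 0.121).

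Pecam1 encodes CD31, an adhesion molecule of endothelial contacts that platelets and some leukocytes also carry. Its level varied little, at 7.56, 7.60, 7.59, 7.63 and 7.79 in DKO replicates 1 to 5, 7.77, 7.72, 7.70, 7.91 and 8.10 in Math1-Cre replicates 1 to 5, and 7.85, 7.85, 7.76, 7.61 and 7.82 in no-Cre replicates 1 to 5. DKO 5 was the DKO library that reached into the Math1-Cre range, and no-Cre 4 lay among the DKO libraries. Its limma difference was -0.21 ± 0.08 from Math1-Cre, with an adjusted p of 0.162, and -0.14 ± 0.08 from no-Cre, with an adjusted p of 0.381.

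Cdh5 encodes VE-cadherin, the adherens junction cadherin of endothelium. Its level was 8.96, 8.88, 8.70, 8.86 and 9.67 in DKO replicates 1 to 5, 9.26, 9.12, 8.98, 9.02 and 9.81 in Math1-Cre replicates 1 to 5, and 9.50, 9.59, 9.27, 9.18 and 9.25 in no-Cre replicates 1 to 5. The other 4 DKO libraries were below every control library, and DKO 5 was above all control libraries except Math1-Cre 5. With DKO 5 included, the limma difference was -0.34 ± 0.18 from no-Cre (adjusted p = 0.331) and -0.23 ± 0.18 from Math1-Cre (adjusted p = 0.457). With 1 library left out at a time, it ran from -0.51 without DKO 5 to -0.27 without DKO 3 from no-Cre, and from -0.39 without DKO 5 to -0.08 without Math1-Cre 5 from Math1-Cre, and no fit passed the threshold.

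**Figure D1:**
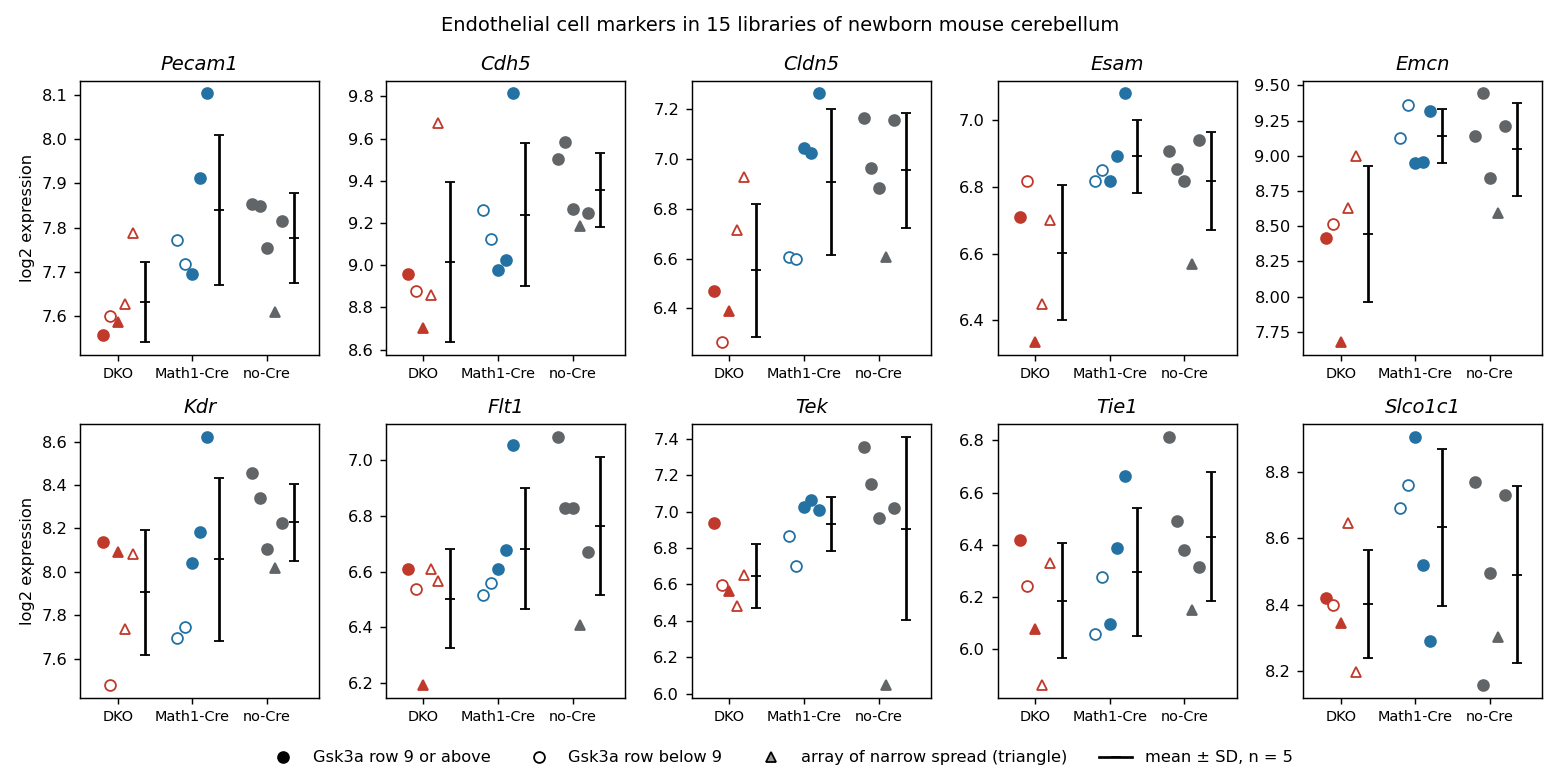
Log2 expression of the 10 endothelial markers by group, 1 point per library, with the group mean ± SD as a bar beside it (n = 5). Open points have a Gsk3a row below 9, and triangles are arrays of narrow spread. Emcn in DKO libraries lies at 7.68 to 9.00, against 8.95 to 9.36 in Math1-Cre and 8.59 to 9.44 in no-Cre libraries.

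Kdr encodes VEGFR2, the main signalling receptor for VEGF on endothelium. Its level was 8.14, 7.48, 8.09, 7.74 and 8.08 in DKO replicates 1 to 5, 7.70, 7.75, 8.04, 8.18 and 8.62 in Math1-Cre replicates 1 to 5, and 8.46, 8.34, 8.10, 8.02 and 8.22 in no-Cre replicates 1 to 5. The 4 lowest libraries were DKO 2 and 4 and the libraries labelled Math1-Cre 1 and 2. In the fit of all 15, its difference was -0.32 ± 0.17 from no-Cre (limma adjusted p = 0.331) and -0.15 ± 0.17 from Math1-Cre (limma adjusted p = 0.599). With 1 library left out at a time, the difference from Math1-Cre ran from -0.24 without Math1-Cre 1 to -0.01 without Math1-Cre 5. In 11 libraries it was -0.46 ± 0.16 from no-Cre (adjusted p = 0.258) and -0.52 ± 0.18 from Math1-Cre (adjusted p = 0.225).

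Flt1 encodes VEGFR1, which binds VEGF tightly and in its soluble form acts as a decoy. Its level was 6.19 to 6.61 in DKO, 6.52 to 7.05 in Math1-Cre and 6.41 to 7.08 in no-Cre libraries. Its mean was 6.50 ± 0.18 in DKO, 6.68 ± 0.22 in Math1-Cre and 6.76 ± 0.25 in no-Cre libraries (SD, n = 5 each). The DKO range was set at its low end by DKO 3, and the 3 ranges overlapped. The limma difference was -0.26 ± 0.13 from no-Cre, with an adjusted p of 0.304, and -0.18 ± 0.13 from Math1-Cre, with an adjusted p of 0.404. Without Math1-Cre 5 it was -0.09 from Math1-Cre.

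Tek and Tie1 are the TIE receptor tyrosine kinases. Tek, or TIE2, binds the angiopoietins. Its level was 6.94, 6.60, 6.56, 6.48 and 6.65 in DKO replicates 1 to 5, 6.87, 6.70, 7.03, 7.06 and 7.01 in Math1-Cre replicates 1 to 5, and 7.35, 7.15, 6.96, 6.05 and 7.02 in no-Cre replicates 1 to 5. No-Cre 4, an array of narrow spread, was the lowest library, and no-Cre 1 the highest. With all libraries the limma difference from no-Cre was -0.26 ± 0.18, with an adjusted p of 0.471. Without no-Cre 4 it was -0.48 and passed the threshold, with a limma adjusted p of 0.0278, in a fit where 1546 of 22180 genes passed. Without no-Cre 1 it was -0.15, with a limma adjusted p of 0.740. From Math1-Cre it was -0.29 ± 0.18, with an adjusted p of 0.355.

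Tie1, a partner of TIE2 that binds no angiopoietin with high affinity, had levels of 5.86 to 6.42 in DKO, 6.06 to 6.66 in Math1-Cre and 6.15 to 6.81 in no-Cre libraries. The limma difference was -0.24 ± 0.14 from no-Cre, with an adjusted p of 0.376. Without no-Cre 1 it was -0.15. From Math1-Cre it was -0.11 ± 0.14, with an adjusted p of 0.657, and -0.02 without Math1-Cre 5, and its sign turned, to 0.046 after quantile normalization and 0.028 after centring each array on its median.

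Slco1c1 encodes OATP1C1, a carrier of thyroxine at the blood-brain barrier, which is also made by choroid plexus and astrocytes. Its level was 8.42, 8.40, 8.35, 8.65 and 8.20 in DKO replicates 1 to 5, 8.69, 8.76, 8.91, 8.52 and 8.29 in Math1-Cre replicates 1 to 5, and 8.77, 8.16, 8.50, 8.30 and 8.73 in no-Cre replicates 1 to 5. The groups interleaved, with no-Cre 2 the lowest library and Math1-Cre 3 the highest. The limma difference was -0.09 ± 0.13 from no-Cre (adjusted p = 0.754), the smallest of the 10, it ran from -0.17 without no-Cre 2 to -0.02 without no-Cre 1, and its sign turned, to 0.014 after centring. From Math1-Cre it was -0.23 ± 0.13 (adjusted p = 0.302).

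**Figure D2:**
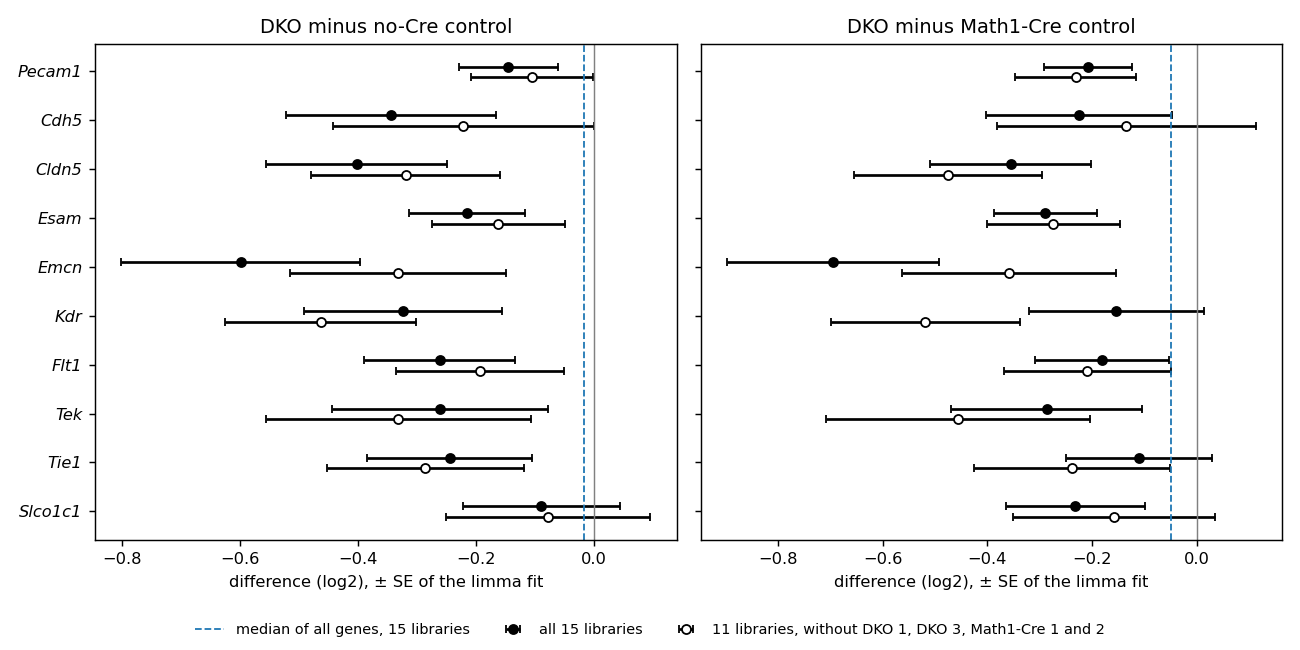
Difference in log2 expression with the limma standard error as a bar for the 10 markers, DKO minus no-Cre and DKO minus Math1-Cre, in all 15 libraries (filled) and in the 11 left without those that went against their labels (open); the dashed line is the median of all genes in 15 libraries. Every point is below 0, and Emcn is the lowest in 15 libraries at -0.60 and -0.69.

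The counts over the 10 are read against those over all genes, which include genes at background. Between DKO and no-Cre in 15 libraries, 0 of the 10 passed an adjusted p of 0.05, where 0.0721% of genes did. At an unadjusted p under 0.05 the limma fit had 3 lower, Emcn, Cldn5 and Esam, where 11.9% of genes were lower at that level. The difference was negative in 10 of 10, against 54.1% of genes. In 0 of 10 did every DKO library lie below every no-Cre library, a pattern seen in 1.96% of genes.

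Between DKO and Math1-Cre in 15 libraries, 0 of the 10 passed, against 0.55% of genes. At the unadjusted level 4 were lower, Emcn, Esam, Pecam1 and Cldn5, against 15.4% of genes. The difference was negative in 10 of 10, against 60.7% of genes, and 0 of 10 had every DKO library lower, against 5.51% of genes. The 2 comparisons share the DKO libraries, so their signs are not independent of each other.

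In 11 libraries the limma fit again passed 0 of the 10 from no-Cre, against 1.08% of genes, and 0 from Math1-Cre, against 0.541% of genes. At the unadjusted level Kdr was lower from no-Cre, against 8.1% of genes, and Kdr and Cldn5 were lower from Math1-Cre, against 10.3% of genes. All 10 differences were negative in both, where 55.9% and 62.3% of genes were. Their medians were -0.25 from no-Cre and -0.26 from Math1-Cre. From no-Cre, Cldn5 was at -0.32 ± 0.16, Tek at -0.33 ± 0.23, Tie1 at -0.29 ± 0.17, Cdh5 at -0.22 ± 0.22, Flt1 at -0.19 ± 0.14, Esam at -0.16 ± 0.11, Pecam1 at -0.10 ± 0.10 and Slco1c1 at -0.08 ± 0.17. From Math1-Cre, Cldn5 was at -0.47 ± 0.18, Tek at -0.46 ± 0.25, Esam at -0.27 ± 0.13, Tie1 at -0.24 ± 0.19, Pecam1 at -0.23 ± 0.12, Flt1 at -0.21 ± 0.16, Slco1c1 at -0.16 ± 0.19 and Cdh5 at -0.13 ± 0.25. Every DKO library lay below every no-Cre library in 0 of 10, against 4.9% of genes. Below every Math1-Cre library they lay in 3 of 10, Cldn5, Tek and Flt1, against 16.9% of genes.

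The 2 controls were compared in the same way, for the question of whether Cre and loss of Gsk-3 beta go with a difference. Between Math1-Cre and no-Cre in 15 libraries, 0 of the 10 passed in the limma fit and 0% of genes did. At the unadjusted level 0 of 10 were lower, against 1.03% of genes, and 0 were higher, against 2.2%. Differences ran from -0.17 to 0.14, with 5 of 10 negative, against 42.2% of genes. In 11 libraries 0 of the 10 passed against 0% of genes, with 0 at the unadjusted level in either direction, against 0.568% lower and 1.63% higher. There 2 of 10 were negative, against 40.4% of genes.

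The library labels and the Gsk3a row sort the libraries differently, and the markers are given by that row as a description, with no test. Kdr was at 7.48 to 8.08 with a median of 7.74 in the 5 libraries of low Gsk3a row, and at 8.02 to 8.62 with a median of 8.16 in the 10 of high Gsk3a row. In 4 of the 5 low libraries Kdr was below its lowest value among the high ones, the exception being DKO 5. For no other member did more than 2 of the 5 lie that low. The share of all genes with such a pattern was not counted. Cldn5 had a median of 6.61 in the low libraries and 7.00 in the high ones, and Tek had 6.65 and 7.01. Emcn did not follow this row, with medians of 9.00 in the low and 8.95 in the high libraries, nor did Slco1c1, with 8.65 in the low and 8.46 in the high libraries. DKO 3, high for the Gsk3a row, was the lowest library for 4 of the 10 members.

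**Figure D3:**
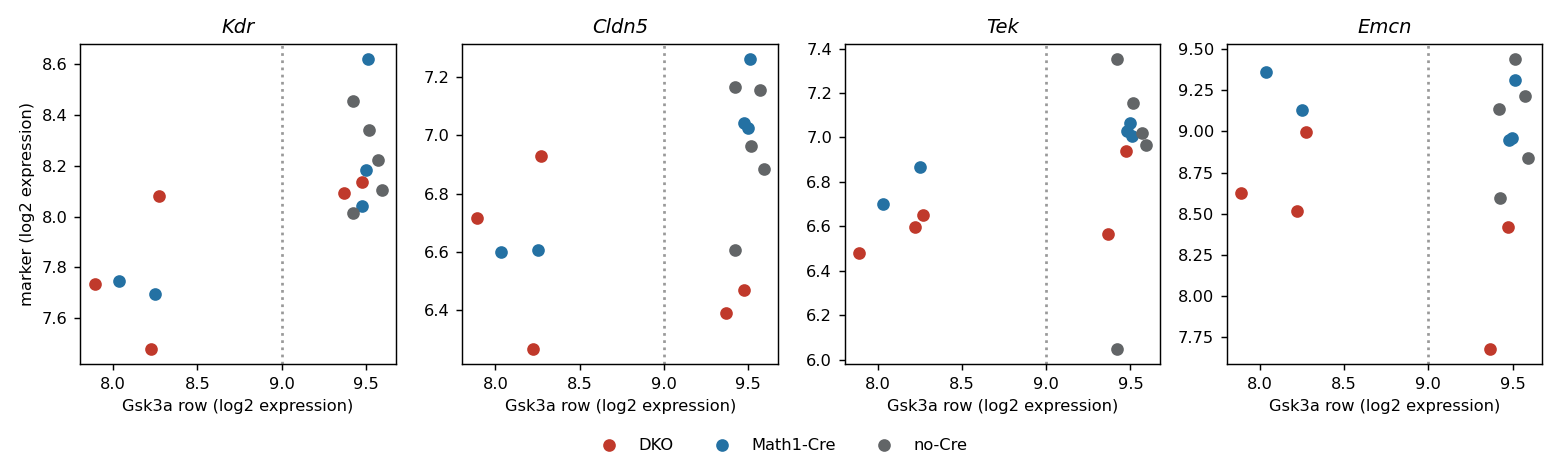
Log2 expression of Kdr, Cldn5, Tek and Emcn against that of the array row annotated to Gsk3a, 1 point per library, coloured by label, with a dotted line at 9.0. The 5 libraries on the left, 3 DKO and 2 Math1-Cre, have the row at 7.89 to 8.27; Kdr is at 7.48 to 8.08 in them and at 8.02 to 8.62 in the other 10.

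The markers were set against array spread within the 11 arrays of wide spread. Pearson's r between a member's level and the array's interquartile range ran from 0.08 for Tie1 to 0.76 for Cldn5. For Cldn5 Spearman's rho was 0.72, and the permutation p was 0.00608 for r and 0.0163 for rho. After Benjamini-Hochberg adjustment over the 10 members, these were 0.0608 and 0.163, so no member passed. Without DKO 2 and no-Cre 5, the arrays farthest from the median range, r over 9 arrays was 0.66 for Cldn5, 0.064 for Emcn and -0.0036 for Cdh5. DKO 1 and DKO 2, at 3.74 and 3.73, had the narrowest ranges of the 11, and the permutation did not keep groups. Spread and label therefore cannot be fully told apart in these correlations. The 4 narrow arrays form a cluster of their own and are too few for a correlation.

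With array spread as a covariate in the limma fit, the median difference of the 10 was -0.15 from no-Cre, with 10 of 10 negative, and -0.13 from Math1-Cre, with 8 of 10 negative. Over all genes the median was 0.00 from no-Cre and -0.01 from Math1-Cre. The narrow arrays were DKO 3, 4 and 5 and no-Cre 4, so spread and label cannot be fully told apart in that fit. Tek was -0.01 from no-Cre and 0.078 from Math1-Cre in that fit. Emcn was -0.50 from no-Cre and -0.55 from Math1-Cre. Centring each array on its median moved the median of all genes by 0.10 for DKO minus no-Cre and 0.14 for DKO minus Math1-Cre. Relative to the median of all genes, the 10 were at -0.24 from no-Cre and -0.18 from Math1-Cre on the deposited values, which centring cannot change, and at -0.16 and -0.13 after quantile normalization.

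Replicate 5 of each group carries the code cg1724 in its description. Between these 3 libraries, with 1 per group and no test, DKO 5 was below no-Cre 5 for 8 of the 10, with differences from -0.53 for Slco1c1 to 0.42 for Cdh5. It was below Math1-Cre 5 for all 10, by differences from -0.54 to -0.09. DKO 5 was an array of narrow spread, with an interquartile range of 3.51 against 3.78 in Math1-Cre 5 and 3.85 in no-Cre 5. Label and spread therefore cannot be told apart here, and the share of all genes lower was not counted. Math1-Cre 5 was the highest of all 15 libraries for 5 members and no-Cre 1 for 3.

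The members varied together over the libraries. Of their 45 pairs, 41 had a Pearson's r above 0 over 15 libraries, with a median of 0.64. The highest were Pecam1 with Cldn5 at 0.82, Esam with Emcn at 0.81, and Flt1 with Tie1 at 0.79. Slco1c1 stood apart, at -0.32 with Cdh5, and among the 36 pairs without it the lowest r was 0.29 and the median 0.67. With group means taken out the median over the 45 was 0.53, and over the 11 arrays of wide spread it was 0.63. These correlations share array spread and overall level, and are given as descriptions. No such median was taken over pairs of other genes.

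**Figure D4:**
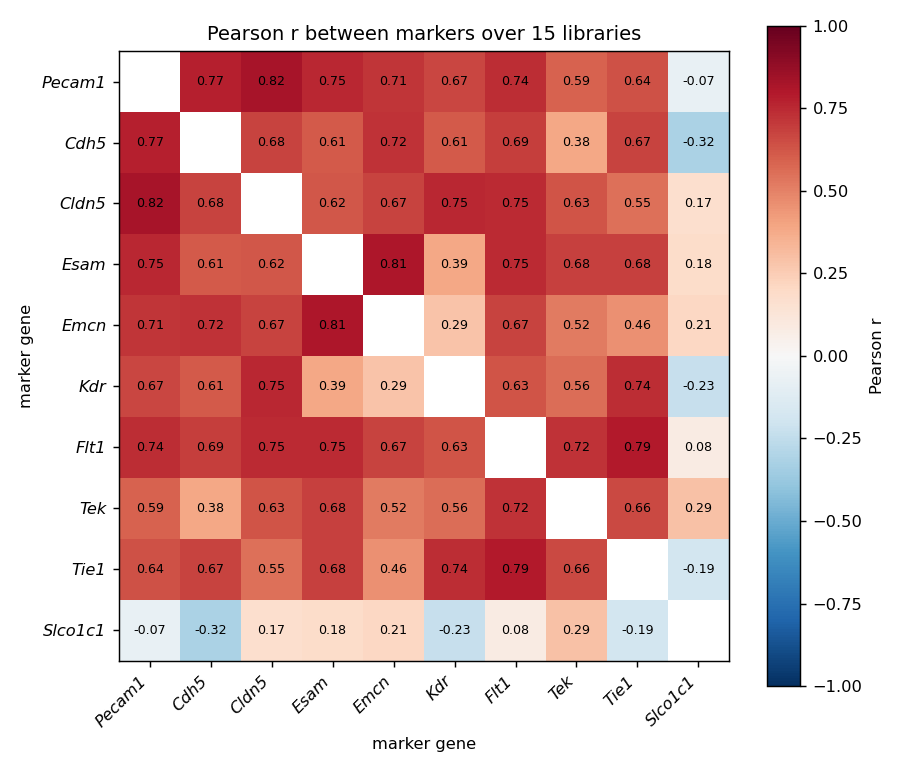
Pearson's r between each pair of the 10 markers over 15 libraries. Slco1c1 has the lowest values, down to -0.32 with Cdh5; the pairs among the other 9 lie between 0.29 and 0.82.

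The genes whose levels were most like the mean of the 10, each first standardized over the 15 libraries, were outside the vascular lists given further on. Prep, Tmem64 and Xpo5 each had r = 0.96 over 15 libraries, Mpp1, Cnih4 and Pak2 had 0.95, Crybg3, Msantd3 and Zfp619 had 0.94, and Lsm8 had 0.93. None of these 10 was on any list. The closest listed gene was Slc7a1, an amino acid transporter, with r = 0.88 and rank 143 of 22170 genes. Taken singly, Kdr was most like Plxnd1 (0.97), a semaphorin receptor of endothelium, and Pecam1 most like Ephb4 (0.93), an ephrin receptor of veins. Esam was most like Ppp4r3b (0.96), Cdh5 most like Prkab1 (0.95), Tek most like Stx6 (0.95), and Emcn most like Ecm2 (0.95). Flt1 was most like Tspan31 (0.94), Cldn5 most like Exosc1 (0.92), Slco1c1 most like Itpr2 (0.90) and Tie1 most like Pdlim1 (0.90).

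Other vascular genes were taken from lists, whose counts and medians are read against those over all genes. In 15 libraries 54.1% of all genes were lower on average than in no-Cre and 60.7% than in Math1-Cre. Medians over all genes were -0.02 and -0.05. In 11 libraries the shares were 55.9% and 62.3%, and the medians -0.02 and -0.06. Of 23 measured further endothelial genes, 20 were lower on average in DKO than in no-Cre libraries and 21 lower than in Math1-Cre libraries, with medians of -0.29 and -0.27. In 11 libraries 20 were lower on average than in either control, with medians of -0.15 from no-Cre and -0.22 from Math1-Cre. She, an adaptor protein, fell by 0.77 ± 0.13 from no-Cre in 15 libraries (limma adjusted p = 0.0392) and by 0.71 ± 0.15 in 11 (limma adjusted p = 0.0495). Its level was 4.26 to 4.85 in DKO, 4.88 to 5.28 in Math1-Cre and 4.98 to 5.52 in no-Cre libraries, so no DKO library overlapped a control. The DKO levels come near the receptor gene medians of their arrays, 3.68 to 4.11. Every DKO library lay below every no-Cre library in 1.96% of genes, and below every Math1-Cre library in 5.51%. She had been named with earlier results of these data, so its pass here is not an independent result. From no-Cre it was at -0.79 after quantile normalization (limma adjusted p = 0.0566) and -0.67 after centring (limma adjusted p = 0.0642). Adgrf5, an adhesion G protein-coupled receptor, fell by 0.53 ± 0.10 from Math1-Cre in 15 libraries (limma adjusted p = 0.0434). In 11 libraries it was -0.43 ± 0.14 from Math1-Cre (adjusted p = 0.209), and from no-Cre in 15 it was -0.40 ± 0.10 (adjusted p = 0.0970). With array spread as a covariate She was at -0.77 from no-Cre (adjusted p = 0.0698) and Adgrf5 at -0.42 from Math1-Cre (adjusted p = 0.248). With 1 library left out of the 15 at a time, She passed from no-Cre in 5 of 15 fits and Adgrf5 from Math1-Cre in 3 of 15.

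Of 13 genes of endothelial Notch signalling and tip cells, 12 were lower on average in DKO than in no-Cre, with a median of -0.16, and 12 lower than in Math1-Cre, with a median of -0.23. In 11 libraries the medians were -0.17 from no-Cre and -0.28 from Math1-Cre. Hey1, a Notch target that neural cells also use, was -0.58 ± 0.15 from no-Cre in 15 libraries (limma adjusted p = 0.0994) and -0.27 ± 0.15 from Math1-Cre (limma adjusted p = 0.292). In 11 libraries it fell by 0.74 ± 0.11 from no-Cre (limma adjusted p = 0.00635) and by 0.67 ± 0.12 from Math1-Cre (limma adjusted p = 0.0308). Among fits of the 15 with 1 library left out, Hey1 passed from no-Cre in 1 of 15 and from Math1-Cre in 0 of 15. Of the 13 other settings, only the fit of 11 libraries passed it, from either control. She, Adgrf5 and Hey1 were the only listed genes that passed in the fits of 15 or 11 libraries, and no listed gene passed with array spread as a covariate.

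Of 15 endothelial transcription factors 12 were lower on average than in no-Cre, with a median of -0.23, and 14 lower than in Math1-Cre, with a median of -0.20. In 11 libraries the medians were -0.23 from no-Cre and -0.34 from Math1-Cre. None passed the threshold in either fit. Ets1, an ETS factor, was at -0.49 ± 0.14 and Klf2, a factor induced by flow, at -0.39 ± 0.15, with limma adjusted p of 0.122 and 0.203. Klf2 was at background in DKO 1, 3, 4 and 5, at 3.72, 3.73, 3.56 and 3.96. The receptor gene medians of those arrays were 3.68, 4.11, 3.97 and 4.01. The list of 18 barrier transporters and junction genes also holds Plvap, which is neither. Of the 18, 16 were lower on average than in no-Cre and 14 than in Math1-Cre, with medians of -0.22 in each. In 11 libraries these were -0.18 from no-Cre and -0.27 from Math1-Cre. Slco1a4, an organic anion carrier, was at -0.79 ± 0.34 and Plvap, which forms diaphragms of leaky capillaries, at -0.52 ± 0.18, with limma adjusted p of 0.247 and 0.166.

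Among 11 VEGF and angiopoietin ligands and co-receptors 9 were lower on average than in no-Cre, with a median of -0.09, and 9 lower than in Math1-Cre, with a median of -0.23. In 11 libraries the medians were -0.06 from no-Cre and -0.20 from Math1-Cre. Pgf, placental growth factor, which binds VEGFR1, was at -0.73 ± 0.25, and Flt4, the VEGF-C receptor, at -0.49 ± 0.17, with limma adjusted p of 0.164 and 0.174. Pgf was at background in DKO 3 and 4, at 3.83 and 3.88, below the receptor gene medians of those arrays. WNT signals from neural cells induce the barrier through Frizzled-4 in endothelium; of 10 genes of that route 8 were lower on average, with a median of -0.16, and 10 lower than in Math1-Cre, with a median of -0.21. In 11 libraries these medians were -0.07 from no-Cre and -0.15 from Math1-Cre. Fzd4, which encodes that receptor, was at -0.34 ± 0.16 and Lrp5, its co-receptor, at -0.35 ± 0.10, with limma adjusted p of 0.292 and 0.117.

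Genes marking other cell types were compared in the same fits. None of them passed, and their part in the endothelial values was not tested. Over all genes, 54.1% were lower on average than in no-Cre and 60.7% than in Math1-Cre in 15 libraries. In 11 libraries these shares were 55.9% and 62.3%. Of the choroid plexus genes, all 7 measured were lower on average in DKO than in either control, with medians of -0.73 from no-Cre and -0.63 from Math1-Cre. Their mean level was 7.11 to 8.49 in DKO, 7.70 to 8.71 in Math1-Cre and 8.09 to 8.65 in no-Cre libraries. In 11 libraries 5 were lower on average than in no-Cre, with a median of -0.54, and 4 than in Math1-Cre, with a median of -0.36. Kcne2 was at -1.06 ± 0.34 and Aqp1 at -0.91 ± 0.37 from no-Cre (limma adjusted p = 0.152 and 0.227).

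Of 12 microglia and macrophage markers 11 were lower on average in DKO than in no-Cre, with a median of -0.23, and 11 than in Math1-Cre, with a median of -0.31. Their mean level was 4.88 to 5.35 in DKO, 5.23 to 5.81 in Math1-Cre and 5.12 to 5.68 in no-Cre libraries. In 11 libraries the medians were -0.25 from no-Cre and -0.26 from Math1-Cre. C1qb was at -0.75 ± 0.27 and Fcrls at -0.47 ± 0.18 from no-Cre (limma adjusted p = 0.182 and 0.198). For 12 pericyte and smooth muscle genes, which share the vessel wall, the median was -0.17 from no-Cre and -0.14 from Math1-Cre, with 9 lower on average in each. In 11 libraries it was -0.05 from no-Cre and -0.13 from Math1-Cre, with 8 lower in each. Their mean level was 5.75 to 6.30 in DKO, 6.06 to 6.50 in Math1-Cre and 6.00 to 6.32 in no-Cre libraries. Kcnj8, a channel of pericytes, was at -0.39 ± 0.22 and Anpep at -0.41 ± 0.26 from no-Cre (limma adjusted p = 0.368 and 0.417).

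The 10 meningeal fibroblast genes had a median of -0.26 from no-Cre and -0.01 from Math1-Cre, with a mean level of 6.99 to 7.98 in DKO, 7.07 to 8.34 in Math1-Cre and 7.31 to 7.78 in no-Cre libraries. The medians in 11 libraries were -0.04 from no-Cre and -0.02 from Math1-Cre. Ogn was at -0.79 ± 0.42 and Aldh1a2 at -0.34 ± 0.37 from no-Cre. Platelet and red cell genes, 7 of 12 measured, had a median of -0.15 from no-Cre and -0.14 from Math1-Cre, and of -0.18 and -0.03 in 11 libraries. Their mean level was 4.22 to 4.32 in DKO, 4.04 to 4.64 in Math1-Cre and 4.23 to 4.68 in no-Cre libraries, close to that of the receptor genes. Ppbp was at -0.60 ± 0.33, with DKO 3 and 4 below the receptor gene medians of their arrays, and Slc4a1 at -0.36 ± 0.16. The 10 astrocyte and Bergmann glia genes had a median of -0.01 from no-Cre and -0.18 from Math1-Cre. Of them 5 and 7 of 10 were lower on average, against 54.1% and 60.7% of all genes. In 11 libraries the medians were above 0, at 0.03 from no-Cre and 0.08 from Math1-Cre, with 3 and 4 of 10 lower. Their mean level was 8.79 to 9.00 in DKO, 8.84 to 9.21 in Math1-Cre and 8.66 to 9.12 in no-Cre libraries. Sox9 was at -0.33 ± 0.09 and Slc1a2 at -0.22 ± 0.10 from no-Cre (limma adjusted p = 0.0994 and 0.252).

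**Figure D5:**
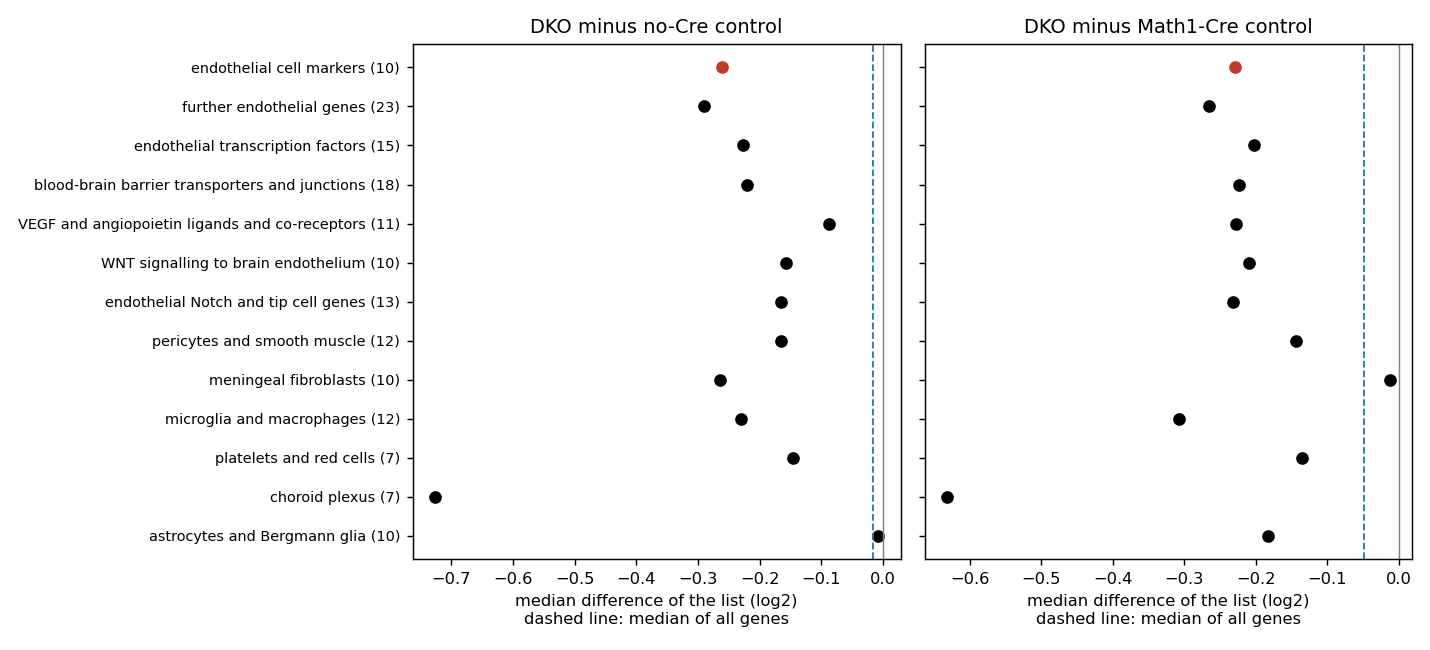
Median difference in log2 expression of each gene list, DKO minus no-Cre and DKO minus Math1-Cre in 15 libraries, with the number of genes measured beside each name. The dashed line is the median of all genes; the endothelial markers are at -0.26 and -0.23, and the choroid plexus genes lie lowest at -0.73 and -0.63.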

How the data were processed

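RNA of 15 cerebella was measured on 1 Affymetrix Mouse Gene 2.1 ST array each. The deposited values are log2 expression per array row, made by the authors with RMA and Partek 6.6 on build mm9, per the submitters' processing notes, which state neither order nor settings. Values ran from 2.11 to 13.49 and were taken unchanged.

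Of 41345 rows, 23521 had 1 gene symbol, 1814 several and 16010 none. The row of highest mean stood for each of 1082 genes with more than 1 row. The row annotated to Gsk3a also carries 9130221H12Rik, so it is given as a row only.

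One limma fit over 22180 genes and 15 libraries, with no covariates and 12 residual degrees of freedom, gave two-sided p-values, adjusted by Benjamini-Hochberg within each comparison, with a threshold of 0.05. It was tested on simulated data. Groups came from the titles. The members and all lists were chosen with earlier results of these data known. Besides the members and the Gsk3a row, genes named were the called ones of each list or else its 2 largest differences DKO minus no-Cre, and the 10 genes most like the members' mean and the 1 most like each. Alternatives were a filter at the 30th percentile, other scalings, moderation, array weights, blocks, array spread and left-out libraries; leaving out the 3 libraries of code cg1724 was chosen after seeing the data. R 4.3.3, limma 3.58.1, Python 3.11.15, scipy 1.17.1 and matplotlib 3.10.9 were used.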

Additional observations from a re-analysis of the deposited data

Results flagged for a closer look

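Among 30 groups of 5 values, 3 held a library far from the other 4, where chance flags about 1 in 20. Cdh5 in DKO 5 was 9.67, with the nearest DKO library at 8.96. Flt1 in DKO 3 was 6.19, with the nearest at 6.54. Esam in Math1-Cre 5 was 7.08, with the nearest at 6.89.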

How the results depend on the processing

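The median difference of the 10 markers ran from -0.36 to -0.15 from no-Cre, -0.27 to -0.09 from Math1-Cre and -0.16 to 0.07 between the controls. Under every setting it moved by less than 0.17, the SD of a library's mean of the 10 within groups. That SD describes single libraries and is not the error of a difference. From Math1-Cre the main fit gave -0.23 and centring gave -0.09. Of 560 values of single markers, 547 kept their direction and side of the threshold, 7 turned and 6 newly passed. Turned from no-Cre was Slco1c1, at 0.014 after centring and 0.022 without the 3 libraries of code cg1724. Turned from Math1-Cre were Tie1, at 0.046 after quantile normalization, 0.028 after centring, 0.030 with array spread and 0.035 without the 4 arrays of narrowest spread, and Tek, at 0.078 with array spread. Markers that passed numbered 1 from each control without the narrow arrays (Emcn), 0 to 2 from no-Cre with 1 library left out (Emcn and Tek without no-Cre 4), and 0 to 1 from Math1-Cre (Emcn, without DKO 5 or no-Cre 4). Of all 22180 genes, 1546 passed from no-Cre and 1288 from Math1-Cre without no-Cre 4. Without the narrow arrays 804 passed from no-Cre.

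Counts of all genes called, 16 from no-Cre, were 239 in 11 libraries, 0 after quantile normalization, 6 after centring, 33 with trend and robust moderation, 2 with only the groups compared, 739 with array weights, 7 with the code as a block, 2 with array spread, 804 without the narrow arrays, 2 without the code's libraries, and 0 to 1546 with 1 library left out. The 122 from Math1-Cre were 20, 23, 236 and 773 under quantile normalization, centring, trend and weights, 1 with array spread, 613 without the narrow arrays, 1 without the code's libraries, and 0 to 1288 with 1 library left out. With the replicate number as a block, 6 were called from no-Cre and 0 from Math1-Cre, with no marker among them. With group means taken out of each gene, same-numbered libraries of different groups correlated at -0.30 to 0.30, 6 of 15 pairs above 0.1. The numbers were therefore not taken as pairs. Higher and lower calls from Math1-Cre were 29 and 93 as deposited, 11 and 9 after quantile normalization and 20 and 3 after centring; from no-Cre they were 4 and 12 as deposited and 3 and 3 after centring. The causes were not tested. Levels near those of the receptor genes are at background, where differences are compressed.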
